A study of Mus musculus with 25 samples.

Results

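The 6 genes described here, Dct, Tyr, Tyrp1, Kit, Mitf and Sox10, mark the melanocyte lineage and were taken by name from a table of 24061 genes. All 6 were found, and their RNA was followed in 21 libraries of sorted mouse skin cells. Melanocytes are the pigment cells of skin and hair, and in the mouse their stem cells sit among the epithelial stem cells of the hair follicle. The enzymes Tyr, Tyrp1 and Dct make melanin inside the melanosome. Kit is the receptor through which melanocytes receive survival and migration signals from keratinocytes, while Sox10 and Mitf are transcription factors, Sox10 acting on Mitf and Mitf on the genes of the enzymes. Kit is also carried by mast cells, and Mitf is transcribed from several starts in cell types beyond melanocytes.

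The skin libraries were of female B6 mice, sorted as lineage marker negative and high for integrin alpha 6. The protocol gives postnatal day 60 for samples it numbers without tying the numbers to titles, so the age of a given library is as that text implies. Hair follicle stem cells (HFSC) were CD34+ and Sca1-, and epidermal stem cells (EpdSC) were CD34- and Sca1+. The set titled CL held 2 libraries of each, with 2 of the wounded HFSC lineage (YFP+) and 2 of wounded EpdSC (YFP-), from mice carrying Sox9CreER and R26-YFP. The YFP mark is therefore set by Cre activity under Sox9, and the YFP- gate holds any cell without it that passes the other markers. The set titled BK held 2 HFSC libraries, 2 EpdSC libraries and 1 library of wounded EpdSC, for which no YFP or Sca1 gate was given. The set titled DS held 1 HFSC and 1 EpdSC library titled Tbr, whose labels give no genotype in words. Its other 6 libraries came from grafted tumours whose cells carried GFP. There was 1 library each of integrin alpha 6 high and low cells from HRas, HRas TbrKO and TbrKO tumours, so no tumour group had a replicate. No source used here spells out Tbr or gives the age of the graft hosts. Depth ran from 14216472 to 36425082 counts per library. The 4 keratinocyte markers counted were present in every library. Of 5 follicle stem cell markers, 4 were called higher in HFSC than in EpdSC, against 13.7% of all genes. They were Lhx2, Sox9, Lgr5 and Cd34, and Cd34 encodes a marker used in the sort. In such sorted bulk samples, fewer cells of a type and less RNA per cell cannot be told apart.

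The promoters of the 3 enzyme genes are shown because they share the 6 letters CATGTG, the E-box form to which MITF is known to bind. Each line gives the 250 bases before a RefSeq start (GRCm38.p6, the coordinates of mm10), 5′ to 3′ on the strand of the gene, with motif matches in capitals. The capitals mark CATGTG, which reads CACATG on the other strand, the SOX motif ACAAAG, which reads CTTTGT there, the similar SOX motif ACAATG, which reads CATTGT there, and the cyclic AMP response element TGACGTCA. The Tyr promoter lies at chr7:87493513-87493762 on the minus strand.
Tyr: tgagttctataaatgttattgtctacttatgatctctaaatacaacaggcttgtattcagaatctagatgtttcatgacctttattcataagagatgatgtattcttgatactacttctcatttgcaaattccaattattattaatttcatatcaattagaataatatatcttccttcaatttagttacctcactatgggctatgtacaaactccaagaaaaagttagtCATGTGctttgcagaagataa
The Tyrp1 promoter lies at chr4:80833963-80834212 on the plus strand.
Tyrp1: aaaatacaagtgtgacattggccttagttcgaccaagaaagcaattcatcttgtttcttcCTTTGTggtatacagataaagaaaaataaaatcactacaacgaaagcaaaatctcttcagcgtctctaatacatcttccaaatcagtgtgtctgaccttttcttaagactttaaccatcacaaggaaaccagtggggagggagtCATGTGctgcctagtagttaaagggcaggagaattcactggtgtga
The Dct promoter lies at chr14:118052247-118052496 on the minus strand.
Dct: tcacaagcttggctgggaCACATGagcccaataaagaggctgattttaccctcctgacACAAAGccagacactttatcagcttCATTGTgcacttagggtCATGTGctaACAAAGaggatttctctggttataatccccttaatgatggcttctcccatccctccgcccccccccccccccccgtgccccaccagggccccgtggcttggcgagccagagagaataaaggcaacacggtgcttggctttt
The first and last of 3 Mitf starts in the table are shown because the chromatin data differed between them. They lie at chr6:97806808-97807057 and chr6:97991533-97991782, both on the plus strand, and the last start is the one known from melanocytes.
Mitf first start: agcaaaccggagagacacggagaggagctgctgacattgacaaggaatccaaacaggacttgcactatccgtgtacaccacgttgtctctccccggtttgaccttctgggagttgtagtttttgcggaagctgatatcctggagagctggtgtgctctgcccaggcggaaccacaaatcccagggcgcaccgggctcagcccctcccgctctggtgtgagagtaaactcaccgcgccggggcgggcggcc
Mitf last start: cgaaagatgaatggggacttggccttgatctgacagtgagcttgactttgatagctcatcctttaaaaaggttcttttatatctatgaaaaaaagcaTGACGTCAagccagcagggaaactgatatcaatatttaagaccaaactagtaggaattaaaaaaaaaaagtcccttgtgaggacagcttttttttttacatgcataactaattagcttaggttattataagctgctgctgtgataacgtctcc
CATGTG began 21 bases before the start in Tyr, 46 in Tyrp1 and 150 in Dct, which held a further match 232 bases before its start. Of 32851 RefSeq promoters of the same length, 12.3% held this motif on either strand. ACAAAG matched at 192 and 141 bases before the start of Dct and at 190 in Tyrp1, against 16.5% of promoters, and ACAATG once in Dct, against 10.7%. TGACGTCA began 153 bases before the last Mitf start and was held by 1.55% of promoters. The palindromic E-box CACGTG, held by 6.02% of promoters, was in none of these 5 windows. None of the motifs was found at the first Mitf start or in the windows of the 2 Kit starts. A match describes the letters only. No entry for Sox10 was matched.

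In unwounded skin the RNA of all 6 genes was counted mainly in the HFSC libraries. Dct, which converts dopachrome during melanin synthesis, stood at 2.84 and 5.04 CPM (TMM-scaled counts relative to library size) in the CL HFSC libraries A and B. It stood at 48.5 and 11.6 CPM in the BK HFSC libraries 1 and 2. The 4 EpdSC libraries held 0.293, 0.514, 1.25 and 0.371 CPM, so the groups did not overlap. The difference between HFSC and EpdSC, fitted over the 8 CL and BK libraries with the set as a term, was 4.39 ± 0.68 on the log2 scale (SE, adjusted p = 0.00195). Of the 13510 genes tested, 13.7% were called higher in HFSC, 9.9% lower and 23.6% in either direction, at an adjusted p below 0.05. The filter on low counts left 4 of the 6 members in this test, namely Dct, Tyrp1, Kit and Mitf, and each was called higher in HFSC.

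Tyrp1, an enzyme and stabilising partner of tyrosinase in the melanosome, held 12, 24, 445 and 107 counts in the HFSC libraries CL A, CL B, BK 1 and BK 2. It was at 0 in 3 of the 4 EpdSC libraries and at 20 counts in BK EpdSC 1. That library reached 0.596 CPM and overlapped the lowest HFSC library, at 0.355 CPM. The fitted difference was 4.79 ± 1.02 (SE, log2, adjusted p = 0.00961). Tyr, which catalyses the first step of melanin synthesis, was not tested. It held 3, 23, 74 and 15 counts in the same HFSC libraries and 1 count in the 4 EpdSC libraries together. The ratio of the summed counts, 115 against 1, was 84.1 after scaling, with an exact counting interval of 14.8 to 3350. Counting error alone enters that interval. Without the filter, edgeR gave Tyr an adjusted p of 0.0022.

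Kit stood at 1.3, 1.35, 5.72 and 0.954 CPM in HFSC and at 0.168, 0, 0.358 and 0.139 CPM in EpdSC, with no overlap. The difference was 3.69 ± 0.75 (SE, log2, adjusted p = 0.00771). Mitf had 89.3, 49.6, 92.9 and 81.6 CPM in HFSC against 11.2, 14.7, 4.32 and 12.2 CPM in EpdSC, a difference of 2.92 ± 0.37 (SE, log2, adjusted p = 0.00065). It was thus the one member with over 100 counts in every EpdSC library. Sox10, which specifies neural crest derivatives including melanocytes, was not tested. It was low in the CL HFSC libraries, with 3 counts in each, and higher in the BK HFSC libraries, with 126 and 44. The 4 EpdSC libraries held 2, 1, 0 and 3 counts, and without the filter its adjusted p was 0.0443. Within BK alone 4 members were called, against 14.4% of 14663 genes. They were Dct, Mitf, Tyr and Sox10. Tyr and Sox10 passed the filter there only through the HFSC libraries, where they are high. Their calls were thus favoured by the filter and add no support. The adjusted p was 0.0654 for Tyrp1 (log2 difference 4.57) and 0.0674 for Kit (3.65). Within CL, where Tyr also passed the filter, Dct, Tyrp1, Kit and Mitf were called and Tyr was not, against 10.8% of 14831 genes.

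Libraries of the HFSC gate also differed within a set. In BK, library 1 exceeded library 2 by 4.18-fold for Dct, 4.11-fold for Tyrp1, 4.88-fold for Tyr, 5.99-fold for Kit and 2.83-fold for Sox10. Mitf differed 1.14-fold. In CL only the enzymes went together, with library B above library A for Dct (5.04 and 2.84 CPM), Tyrp1 (24 and 12 counts) and Tyr (23 and 3 counts). Kit was level there (1.35 and 1.3 CPM), Sox10 had 3 counts in each, and Mitf was lower in B (49.6 and 89.3 CPM). The Tbr HFSC library, outside the test, lay among the others for Dct (5.98 CPM), Tyrp1 (1.87 CPM) and Sox10 (0.561 CPM). It was lowest of the 5 HFSC libraries for Kit (0.810 CPM) and highest for Mitf (111 CPM). The Tbr EpdSC library held 0.362 CPM of Dct, 13.3 CPM of Mitf, 4 counts of Kit and none of Tyr, Tyrp1 or Sox10.

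**Figure D1:**
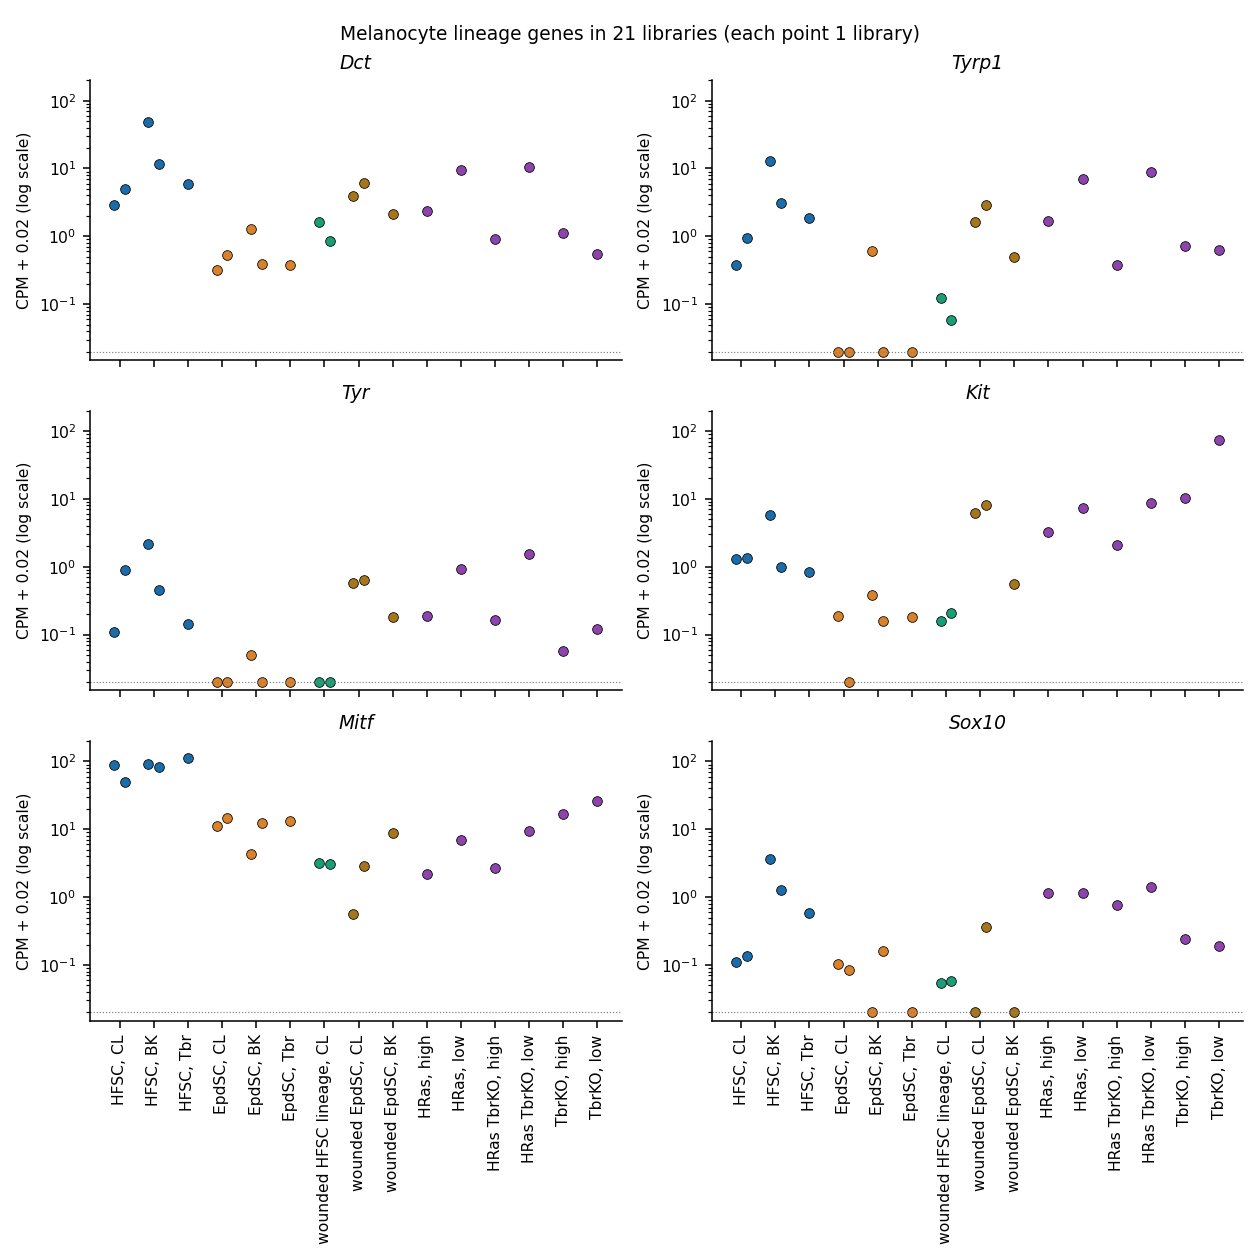
Level of each of the 6 genes in CPM plus 0.02 on a log scale, with 1 point per library and the dotted line at a count of 0. Dct, Tyrp1, Tyr and Kit are high in HFSC and in the wounded EpdSC of CL and low in EpdSC and the wounded HFSC lineage, while Mitf is high in the 5 HFSC libraries alone, at 49.6 to 111 CPM.

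Among 10 further receptors and regulators of melanocytes, 5 were tested between HFSC and EpdSC, and 3 rose in HFSC, with a median log2 difference of 2.56 against -0.03 over all genes. These were the transcription factors Lef1 (3.36 against 0.041 CPM) and Sox5 (1.67 against 0.250 CPM) and the ion channel Mcoln3 (2.41 against 0.059 CPM). Mc1r, the receptor for melanocyte-stimulating hormone, had 30 counts in HFSC and 1 in EpdSC, a ratio of 21.9 with an exact interval of 3.65 to 895. Of the 14 melanosome and pigment genes, 9 were tested. None of the 9 rose and 2 fell, with a median of -0.47. The 2 that fell were the transport genes Rab27a (9.21 CPM in HFSC, 78.2 CPM in EpdSC) and Mreg (35.5 and 92.6 CPM). Those not tested, all at low counts, had higher means in HFSC. They were Mlana (0.433 against 0.052 CPM), Slc45a2 (0.404 against 0.046 CPM), Slc24a5 (0.371 against 0.129 CPM), Gpr143 (0.053 against 0 CPM) and Oca2 (0.0096 against 0 CPM). The melanosome matrix gene Pmel stood at 7.35 CPM in HFSC and 5.39 CPM in EpdSC (adjusted p = 0.845). Of 9 ligands for melanocyte receptors, 8 were matched in the table and 4 tested. Kitl, the ligand of Kit, was higher in HFSC, at 30.3 against 14.9 CPM (log2 difference 1.08 ± 0.27, SE, adjusted p = 0.0204), and the median of the 4 was 0.37. The lists were chosen with results of these data known.

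Markers of other cell types were counted beside these differences. Of 8 mast cell markers, 1 to 4 were detected in each of the 4 HFSC libraries, summing to 0.885 to 4.57 CPM, with Tpsb2, Fcer1a and Ms4a2 at 0 in all. In EpdSC, 1 or 2 were detected, summing to 0.168 to 11.7 CPM, with Cpa3, Mcpt4, Tpsb2, Fcer1a, Ms4a2 and Gata2 at 0 in all. The sum there was mostly Hdc (mean 3.00 CPM), with Cma1 at 0.105 CPM. Of 6 fibroblast markers, 4 were tested and 3 were higher in HFSC, namely Col1a1, Col1a2 and Pdgfra, while Col3a1 was not called. The sum was 36.9 to 92.7 CPM in HFSC against 1.16 to 3.31 CPM in EpdSC. Most of it in HFSC was Col1a2 (mean 48.1 CPM) and Col1a1 (14.9 CPM). Dcn (0.269 against 0.572 CPM) and Lum (1 against 7 counts), not tested, were lower in HFSC. Of 9 Schwann and neural crest markers, 6 to 9 were detected in HFSC, summing to 36.5 to 54.9 CPM, and 4 to 6 in EpdSC, summing to 151 to 221 CPM. Ngfr, which gave most of the sum in EpdSC, was lower in HFSC (15.4 against 106 CPM). Whether these cells contribute to the RNA of the 6 genes was not tested.

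After wounding, the enzymes and Kit moved in opposite directions in the 2 lineages. In the wounded HFSC lineage Dct stood at 1.63 CPM in library A and 0.834 CPM in library B, below both CL HFSC libraries (2.84 and 5.04 CPM). In wounded EpdSC it stood at 3.88 and 6.06 CPM, above both CL EpdSC libraries (0.293 and 0.514 CPM). The log2 change was -1.69 ± 0.52 (SE, adjusted p = 0.0313) in the HFSC lineage and 3.64 ± 0.61 (SE, adjusted p = 0.00173) in EpdSC. The 8 CL libraries were fitted together, and Sox10 alone of the 6 members did not pass the filter. In the HFSC lineage 5 members were called lower, against 24.7% of 14831 genes in that direction and 46.1% in either. In EpdSC 4 were called higher and 1 lower, against 30.2% and 28.2% of genes, 58.4% in all. The unwounded libraries were gated on CD34 and Sca1 and the wounded ones on YFP, so wound and gate cannot be told apart within a lineage.

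Tyrp1 held 3 and 1 counts in the wounded HFSC lineage, against 12 and 24 in CL HFSC (log2 change -3.07 ± 0.95, SE, adjusted p = 0.035). It rose from 0 counts in both CL EpdSC libraries to 32 and 66 in wounded EpdSC, at least 14-fold higher against a floor of 3 counts per library (adjusted p = 0.00248). Tyr mirrored it at lower counts. It was at 0 in both libraries of the wounded HFSC lineage, at least 4.47-fold lower than in HFSC (3 and 23 counts, adjusted p = 0.0451). In wounded EpdSC it had 11 and 14 counts against 0 in EpdSC, at least 3.64-fold higher (adjusted p = 0.0429).

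Kit fell in the HFSC lineage from 1.3 and 1.35 CPM to 0.139 and 0.190 CPM, a log2 change of -2.99 ± 0.67 (SE, adjusted p = 0.00838). In EpdSC it rose from 0.168 and 0 CPM to 6.27 and 8.02 CPM, a log2 change of 6.11 ± 0.75 (SE, adjusted p = 0.000442). Kit in wounded EpdSC was thereby above all 5 unwounded HFSC libraries. Mitf did not take part in that rise. It fell in both lineages, from 89.3 and 49.6 to 3.19 and 3.03 CPM in the HFSC lineage (-4.48 ± 0.64, SE, log2, adjusted p = 0.00108). In EpdSC it fell from 11.2 and 14.7 to 0.548 and 2.88 CPM (-2.90 ± 0.62, SE, log2, adjusted p = 0.00542). Sox10 had 1 count in each wounded library of the HFSC lineage, none in wounded EpdSC A and 8 in wounded EpdSC B. Against the unwounded libraries its summed counts gave ratios whose exact intervals held 1, namely 0.496 to 28.1 for HFSC over the wounded HFSC lineage and 0.587 to 14.3 for wounded EpdSC over EpdSC.

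The difference between the wound responses was tested as a term of the same fit. It was called for 4 members, all lower in the HFSC lineage, against 10.5% of genes in that direction, 5.31% in the other and 15.8% in all. It was -5.33 ± 0.80 (SE, log2, adjusted p = 0.00539) for Dct and -9.10 ± 1.01 (adjusted p = 0.00166) for Kit, and the adjusted p was 0.00737 for Tyrp1 and 0.0394 for Tyr. For Mitf it was -1.58 ± 0.83 (SE, log2, adjusted p = 0.191). Set against each other directly, the wounded HFSC lineage was lower than wounded EpdSC in 3 members, against 12.4% of genes in that direction, 6.8% in the other and 19.2% in all. They were Dct (-2.02 ± 0.53, SE, log2, adjusted p = 0.041), Tyrp1 (-4.88 ± 0.94, adjusted p = 0.0216) and Kit (-5.41 ± 0.68, adjusted p = 0.003). Tyr, at least 5.32-fold lower, had an adjusted p of 0.0613, and Mitf (0.83 ± 0.62) one of 0.312.

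Several of these calls rested on single libraries. Of the 5 members called in the HFSC lineage, some lost the call without HFSC B, without the wounded library A and without the wounded library B. Mitf kept it in each case. Fewer of all genes were called in these fits as well, and each left 1 library in a group. Dct then had adjusted p-values of 0.16, 0.0523 and 0.187. Between the wounded lineages Dct lost its call without any 1 of the 4 libraries (adjusted p = 0.0602 to 0.235). Tyrp1 lost it without any but wounded EpdSC B (0.0662 to 0.181), and Mitf was called without that library (2.52, adjusted p = 0.00812). In EpdSC the call for Tyr was lost without any 1 of the 4 libraries, and the others were kept. The Mitf difference of responses turned to 0.11 (adjusted p = 0.93) without wounded EpdSC B and was -2.35 (adjusted p = 0.0179) without wounded EpdSC A.

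The other genes of pigment cells moved less uniformly with wounding. In wounded EpdSC 3 of 6 tested receptors and regulators rose and 1 fell. Zeb2, a transcription factor of melanocytes and other cells, rose from 0.159 to 4.18 CPM, and Sox5 rose from 0.275 to 0.953 CPM. Lef1 rose from 0 counts to at least 2.66-fold above the floor, and Erbb3 fell from 133 to 90.1 CPM. The median of the 6 was 2.00, or 1.59 with Lef1 at its bound, against -0.04 over all genes. Of 11 tested melanosome and pigment genes, Mlana (0.105 to 1.21 CPM) and Rab38 (76.9 to 141 CPM) rose and Rab27a fell (82.9 to 20.7 CPM), with a median of -0.30. In the HFSC lineage Lef1 (2.36 to 0.251 CPM) and Mcoln3 (1.11 to 0.069 CPM) fell among 6 tested regulators, with a median of -1.31 against -0.10 over all genes. Rab38 (54.4 to 133 CPM) and the motor gene Myo5a (56.4 to 269 CPM) rose among the 11 melanosome genes, with a median of 0.59. Pmel was lower in the wounded HFSC lineage than in wounded EpdSC, at 1.64 against 5.81 CPM (adjusted p = 0.0264). Of 5 tested ligands, Nrg1, a ligand of Erbb3, rose in both lineages, from 0.808 to 6.47 CPM in the HFSC lineage and from 1.16 to 5.33 CPM in EpdSC. The medians of the 5 were -0.42 and 0.51.

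Markers of blood cells, fibroblasts and endothelium also stood apart in wounded EpdSC. All 6 haematopoietic markers rose there, summing to 3795 and 4937 CPM against 27.6 and 42.3 CPM in CL EpdSC and 33.5 and 40.3 CPM in the wounded HFSC lineage. All 6 fibroblast markers rose as well, to 646 and 692 CPM from 2.51 and 2.85 CPM, against 6.60 and 9.81 CPM in the wounded HFSC lineage. Of 4 endothelial markers the 3 tested rose (Pecam1, Cdh5 and Kdr), the sum being 15.0 and 11.3 CPM against 0.587 and 0.386 CPM in CL EpdSC. Of 8 mast cell markers, 2 and 5 were detected in the wounded EpdSC libraries, summing to 17.2 and 37.7 CPM, nearly all of it Hdc (16.8 and 37.3 CPM). Mcpt4, Tpsb2 and Fcer1a were at 0 in both, and Cpa3, a protease of mast cells that carry Kit, at 0 and 0.044 CPM. In the wounded HFSC lineage 2 mast cell markers were detected in each library, summing to 0.243 and 0.341 CPM. The part of blood cells, fibroblasts and endothelium in the changes of the 6 genes was not tested. The BK library of wounded EpdSC, which entered no test, did not show the rise in haematopoietic markers (36.2 CPM) or fibroblast markers (2.29 CPM). All 4 endothelial markers were detected in it, summing to 3.46 CPM against 1.10 and 0.510 CPM in BK EpdSC. In that wounded library Dct stood at 2.08 CPM, Tyrp1 at 0.480 CPM, Kit at 0.533 CPM, Tyr at 0.16 CPM, Mitf at 8.74 CPM and Sox10 at 0. Dct in it was above both BK EpdSC libraries (1.25 and 0.371 CPM), Kit also (0.358 and 0.139 CPM), and Tyrp1 lay between them (0.596 and 0 CPM).

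Tyrp1 counts relative to Dct counts are given per library as a description, with no test between gates. Of the summed counts of Tyrp1 and Dct, Tyrp1 made up 11.1% to 23.8% in the 5 HFSC libraries, with a median of 20.8%. It was 29.1% (95% Wilson interval 21.4% to 38.2%) and 32.2% (26.2% to 38.9%) in the wounded EpdSC of CL. In the wounded HFSC lineage it was 6% (2.06% to 16.2%) and 4.35% (0.772% to 21%). The 6 tumour libraries ran from 28.6% to 52.9%, all above the 5 HFSC libraries. The intervals of HRas TbrKO high (16.3% to 45.1%) and TbrKO high (26.4% to 52.8%) overlapped that of Tbr HFSC (17.2% to 32%), as did those of both wounded EpdSC libraries. The intervals of the wounded HFSC lineage overlapped those of CL HFSC. These intervals cover counting error only. In EpdSC the share was 0% in 4 of 5 libraries, on 7 to 9 counts, with Wilson intervals reaching up to 29.9% to 35.4%, and 32.3% in BK EpdSC 1 on 62 counts.

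**Figure D2:**
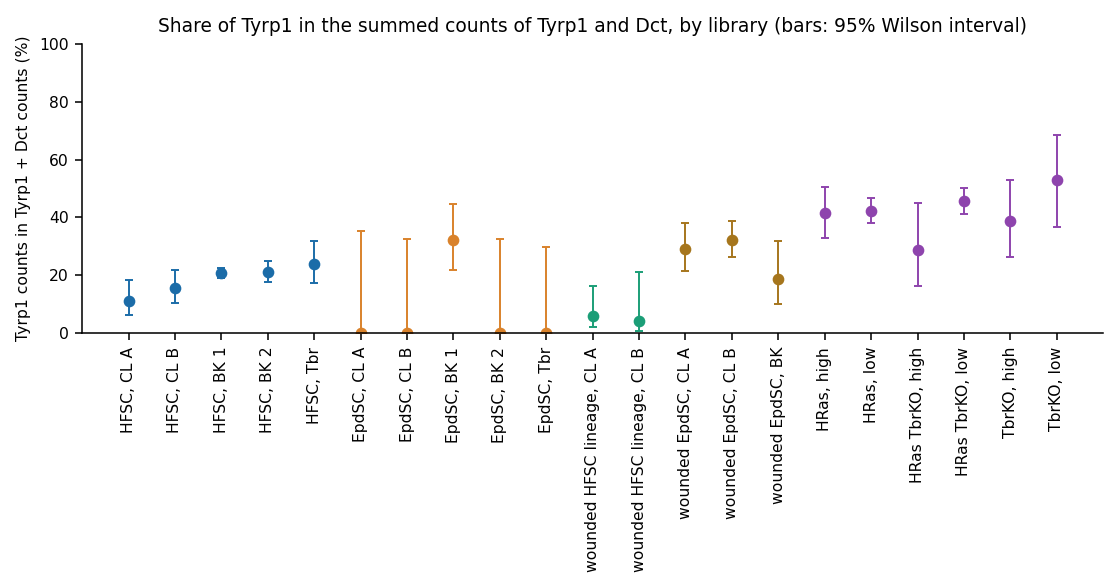
Share of Tyrp1 in the summed counts of Tyrp1 and Dct in each library, in percent, with 95% Wilson intervals. The share is 11.1% to 23.8% in HFSC, 4.35% and 6% in the wounded HFSC lineage and 28.6% to 52.9% in the tumour libraries.

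In the tumours, the enzymes were lower in the integrin high cells than in the integrin low cells where HRas was present, and Kit and Mitf were lower in all 3 genotypes. Dct stood at 2.31 CPM in the high and 9.57 CPM in the low cells of HRas tumours, and at 0.893 and 10.5 CPM in those of HRas TbrKO tumours. In TbrKO tumours it stood at 1.11 CPM in the high and 0.537 CPM in the low cells, the opposite order. Tyrp1 had 1.64 and 7.01 CPM in HRas, 0.357 and 8.78 CPM in HRas TbrKO and 0.701 and 0.604 CPM in TbrKO tumours. Tyr, not tested here, had 5 and 27 counts, 4 and 36 counts, and 1 and 3 counts in the same order. Kit stood at 3.18 and 7.38 CPM, at 2.04 and 8.74 CPM, and at 10.4 and 73.1 CPM, the last the highest Kit level of the 21 libraries (2176 counts). Mitf stood at 2.21 and 6.84 CPM, at 2.68 and 9.55 CPM, and at 16.6 and 26.4 CPM.

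With genotype as a block, no member was called between the gates over the 3 pairs, where 2.95% of 14519 genes were called lower in the high cells and 3.07% in either direction. Kit came nearest (-2.04 ± 0.35, SE, log2, adjusted p = 0.0512), followed by Mitf (-1.33 ± 0.27, adjusted p = 0.0721), Tyrp1 (-2.17 ± 0.91, adjusted p = 0.24) and Dct (-1.68 ± 0.89, adjusted p = 0.322). At an unadjusted edgeR p below 0.05 Kit and Mitf passed, as did a larger share of all genes than the 3.07% called. That share was not counted, so no result is read from the passing of Kit and Mitf. DESeq2 called both (adjusted p = 1.01e-06 and 0.00159), where it called 11.3% of 14918 genes. Sox10 did not separate the gates, with 34 and 33 counts in HRas, 21 and 33 in HRas TbrKO and 6 and 5 in TbrKO tumours (-0.22, adjusted p = 0.774). Without both TbrKO libraries 5 members were called lower in the high cells, where 19.8% of 14694 genes were called in either direction, among them Dct (-2.73, adjusted p = 0.00418) and Tyrp1 (-3.10, adjusted p = 0.00959). A test of the gate difference in TbrKO minus that in HRas-bearing tumours, added for the order seen in Dct, gave 3.69 ± 0.80 for it (SE, log2, adjusted p = 0.0493). It called 3.18% of genes higher, 1.98% lower and 5.17% in all. The TbrKO side was 1 library per gate, and the 1 residual degree of freedom came from the HRas-bearing tumours, so this value does not establish a difference between genotypes. Among the other genes of the lists, none of 10 tested melanosome genes (median -0.36), 7 receptors and regulators (-0.45) or 5 ligands (0.63) was called, against a median of 0.05 over all genes.

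Markers of other cells differed between the gates as well. All 6 fibroblast markers were lower in the high cells, with sums of 888 to 2137 CPM in the high and 5516 to 11150 CPM in the low libraries. Of 5 tested haematopoietic markers, 4 were lower in the high cells (228 to 491 against 702 to 1570 CPM). All 8 mast cell markers were detected in every tumour library and none was called between the gates. Their sum was 33.8 CPM in the high and 106 CPM in the low cells of HRas tumours, 24.9 and 384 CPM in HRas TbrKO, and 11.1 and 16.1 CPM in TbrKO tumours. Hdc had the highest mean of the 8 in both gates, at 9.92 CPM in the high and 137 CPM in the low cells. Cpa3, the next in the low cells, averaged 8.27 CPM there, so the sum mostly follows Hdc. Kit was highest in the TbrKO low library, and the mast cell sum there was the lowest of the 3 low libraries. What part these cells have in the gate differences was not tested.

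**Figure D3:**
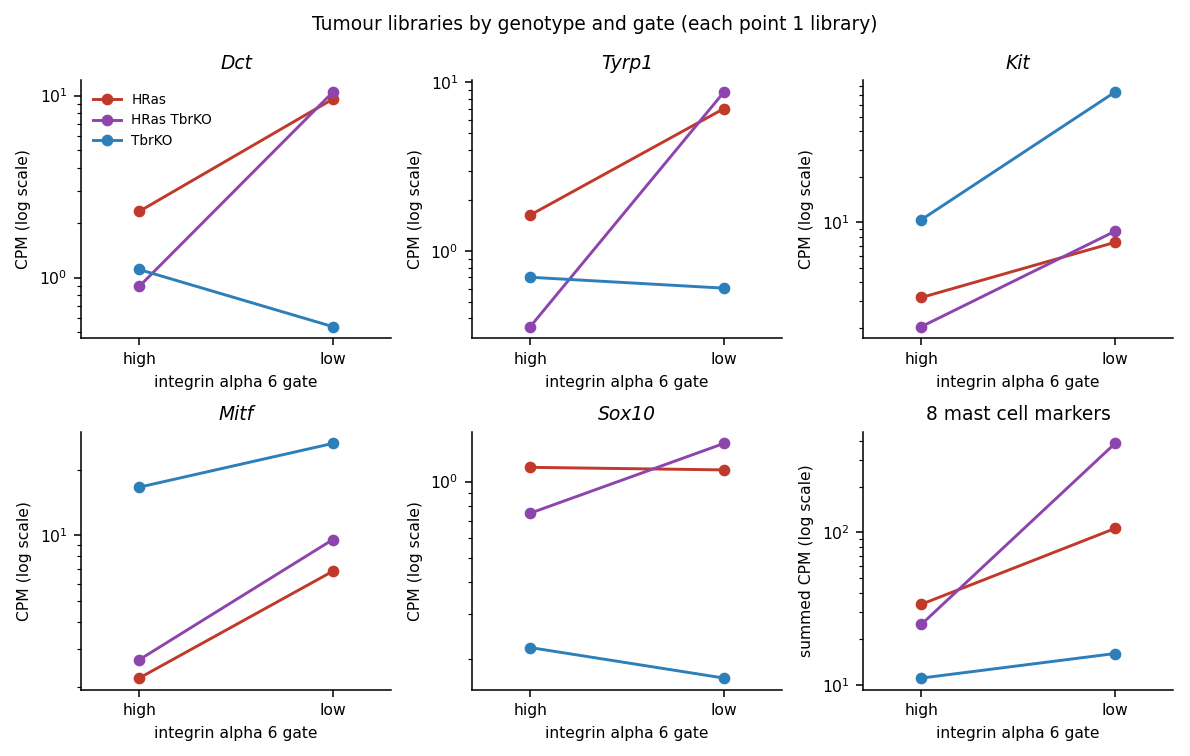
Levels of 5 of the genes (CPM, log scales that differ between panels) and the summed CPM of 8 mast cell markers in integrin alpha 6 high and low tumour cells, with 1 line per genotype and 1 library per point. Kit and Mitf rise from high to low in all 3 genotypes, while Dct goes from 1.11 to 0.537 CPM in TbrKO tumours and rises in the other 2.

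Between genotypes, the members split. In TbrKO tumours against the 4 HRas-bearing libraries, with gate as a block, Kit and Mitf were higher and Tyr and Sox10 lower, against 18.9% of 15113 genes called higher, 18.7% called lower and 37.6% in either direction. Kit averaged 41.7 CPM against 5.33 CPM (2.63 ± 0.33, SE, log2, adjusted p = 0.0033) and Mitf 21.5 against 5.32 CPM (2.22 ± 0.29, adjusted p = 0.00385). Sox10 averaged 0.195 against 1.10 CPM (-2.48 ± 0.49, SE, log2, adjusted p = 0.0122) and Tyr 0.069 against 0.691 CPM (-3.10 ± 0.69, adjusted p = 0.0171). Dct (0.822 against 5.81 CPM, adjusted p = 0.124) and Tyrp1 (0.653 against 4.45 CPM, adjusted p = 0.145) were lower on average without a call. With 1 tumour library per genotype and gate, the genotype cannot be told apart from the tumour. The calls for Tyr and Sox10 were lost without either TbrKO library (adjusted p = 0.0531 and 0.0568 without the high, 0.252 and 0.0816 without the low library). Dct was called without the TbrKO high library (-4.18, adjusted p = 0.0267) and Tyrp1 without the HRas TbrKO high library (adjusted p = 0.0434).

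Of the 11 tested melanosome genes in this comparison, Pmel (1.44 against 4.31 CPM) and the channel Trpm1 (0.163 against 1.66 CPM) were lower in TbrKO tumours. Mlph (10.3 against 1.73 CPM) and Rab38 (78.1 against 52.4 CPM) were higher, and the median was -0.27 against -0.04 over all genes. Cited1, a transcriptional coregulator, was lower (0.141 against 1.18 CPM) and Sox5 higher (8.58 against 1.66 CPM) among 8 tested receptors and regulators, whose median was 0.06. Among 5 tested ligands, with a median of 1.83, Kitl (81.8 against 29.0 CPM), Edn1 (56.2 against 5.25 CPM) and Hgf (16.7 against 3.34 CPM) were higher, and Nrg1 was lower (12.7 against 106 CPM). Of the 8 mast cell markers, 2 were lower in TbrKO tumours and none higher, their sum being 11.1 and 16.1 CPM there against 24.9 to 384 CPM. All 4 endothelial markers were lower as well, summing to 49.4 and 50.8 CPM against 94.8 to 228 CPM. Of 5 tested haematopoietic markers 3 were lower (Ptprc, Cd207 and H2-Aa), with sums of 228 and 702 CPM against 314 to 1570 CPM. Of 6 fibroblast markers Pdgfra was lower (17.0 against 46.0 CPM), and the sums overlapped. Of 7 tested Schwann and neural crest markers Sox2 was lower (2.15 against 27.6 CPM), with sums of 97.0 and 141 CPM against 147 to 195 CPM. All 5 cell cycle genes were lower, summing to 178 and 238 CPM against 328 to 590 CPM. Their part in the genotype differences of the 6 genes was not tested.

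Against the pair of Tbr skin libraries, no member was called in the 6 tumour libraries, where 31.4% of 15471 genes were called. The pair was 1 HFSC and 1 EpdSC library, with Mitf at 111 and 13.3 CPM, so its mean describes neither gate. The spread in this fit held that lineage difference, and genotype and gate among the tumours, rather than replicates of a condition. Kit averaged 17.5 CPM in the tumours and 0.485 CPM in the skin pair (5.20, adjusted p = 0.0611), and Mitf 10.7 and 62.3 CPM (-2.55, adjusted p = 0.0652). DESeq2 called both (adjusted p = 0.000299 and 0.0317), where it called 42.6% of 16614 genes. So did edgeR without the TbrKO low library (3.71, adjusted p = 0.0308, and -3.07, adjusted p = 0.0384), with 32.9% of 15343 genes called. At an unadjusted edgeR p below 0.05 Kit and Mitf passed, as did a larger share of all genes than the 31.4% called. That share was not counted, so no result is read from the passing of Kit and Mitf. The median of all genes was 0.10 in this comparison. All 6 tumour libraries had Mitf below the 5 HFSC libraries.

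Over the 21 libraries the 3 enzymes ranked alike. The Spearman correlation of log2(CPM + 0.5) was 0.91 for Dct with Tyrp1, 0.91 for Tyr with Tyrp1 and 0.87 for Dct with Tyr. Sox10 and Kit were intermediate, at 0.70 and 0.74 with Tyrp1. Mitf ranked apart, at 0.16 with Dct, 0.02 with Tyr and -0.03 with Kit. Among 15749 genes with at least 10 counts in 3 libraries, those most like Dct were Tyrp1, Ptgds (0.89), Tyr, Atp4a and Abtb2. Those most like Tyr were Tyrp1, Cdc42ep2 (0.89), Ptgds (0.87), Dct and Cited1, and those most like Tyrp1 were Dct, Tyr, Crabp1 (0.88), Rnf144a and Carns1. Ptgds makes prostaglandin D2. The genes most like Kit were others altogether, led by Tnfsf12 (0.95), Dennd3, Ctsz, Ntn1 and Fbln5. For Mitf they included Srrm4 (0.96), Hmcn1, Mllt4 and Esyt3, and for Sox10 they were Fbxl7 (0.93), Tacr1, Pacsin2, Ccdc85a and Vstm4. These are descriptions over libraries that share gates, sets and tumours.

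Open chromatin at the 6 genes was read from peak lists of 4 populations of female CD1/B6 mixed mice, 1 pooled list each and so without replicates. They were HFSC and EpdSC at postnatal day 50, GFP+ cells high for integrins alpha 6 and beta 1 from HRas-induced carcinomas, and integrin alpha 6 positive, Sca1+ cells of wounds. Within the genes and 10 kb on either side, 16 peaks were listed in HFSC, 6 in EpdSC, 13 in wound and 13 in tumour. The lists held 55435, 25742, 56865 and 54201 peaks, in the same order. They rested on 26825550 fragments in HFSC, 13963471 in EpdSC, 11140895 in wound and 29579794 in tumour, so the lists differ in length and depth as well. Mitf took most of them, with 12, 5, 9 and 9 peaks. Tyr had none in any list, and Tyrp1 had 1, in the tumour list.

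At Mitf the first start lay under a peak in all 4 lists, with the authors' fold enrichment at 13.1 in HFSC, 12.6 in EpdSC, 14.2 in wound and 11.6 in tumour. No list had a peak at the second or the last start, counted from 1 kb before to 100 bases after it. Of 32851 RefSeq starts, 42.5% had such a peak in HFSC, 30.1% in EpdSC, 40.5% in wound and 38.4% in tumour. The last start is the one whose promoter is printed above with TGACGTCA. A further region, chr6:97952864-97953284, 146 kb after the first start and inside the gene, was listed in all 4 populations, with a fold of 18.1 in tumour, 16.8 in wound, 14.7 in EpdSC and 7.49 in HFSC. Of the 19 Mitf regions, 3 were shared by all 4 lists and 11 stood in 1 list only. One of these, chr6:98007280-98007917 in HFSC (fold 12.6), lay 200.6 kb after the first start. The RNA counts are per gene and do not tell which start was used.

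**Figure D4:**
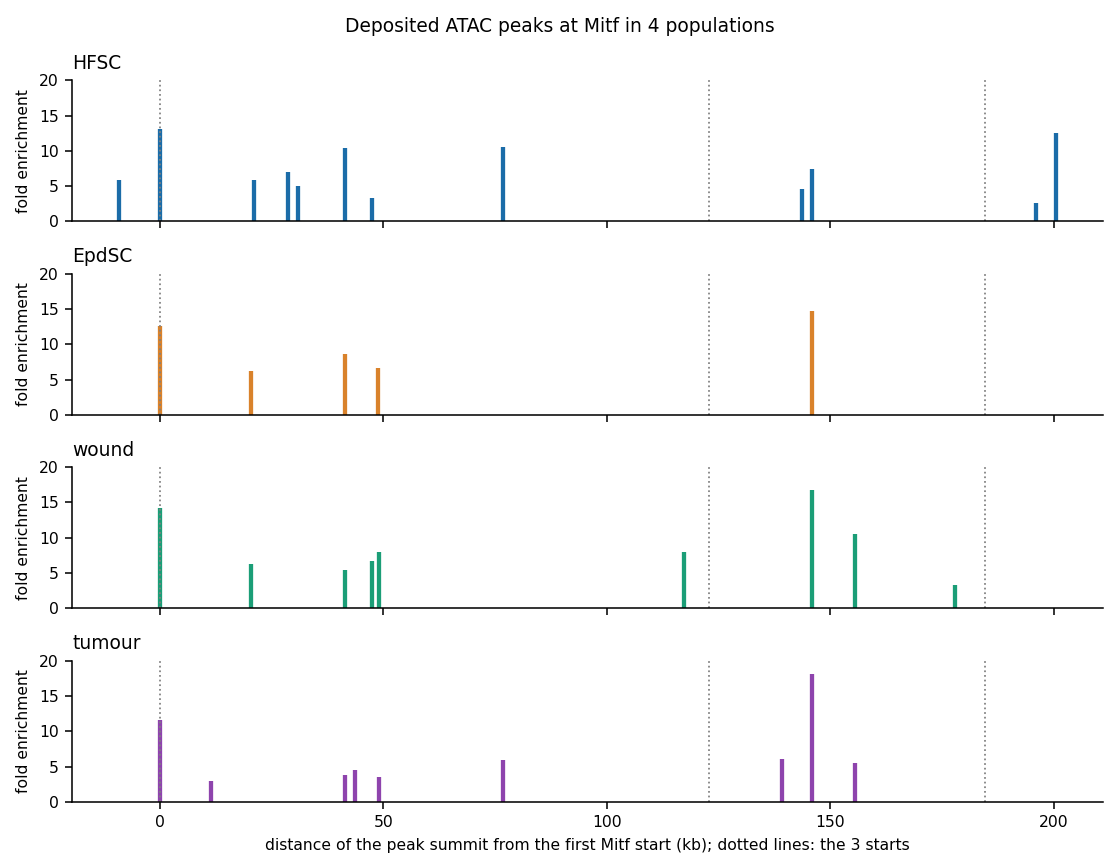
Fold enrichment of each deposited ATAC peak at Mitf in 4 populations, by distance of its summit from the first start in kb, with dotted lines at the 3 starts. All 4 lists have a peak at the first start (11.6 to 14.2) and near 146 kb (7.49 to 18.1), and none at the second and last starts.

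At Dct the region chr14:118050860-118052218, in the first part of the gene, was listed in all 4 populations, with its summit about 1.1 kb after the start in HFSC, EpdSC and wound. Its fold enrichment was 9.39 in HFSC, 10.2 in EpdSC, 9.94 in wound and 4.17 in tumour, and the HFSC peak alone reached to within 100 bases of the start. The wound list had 4 Dct peaks in all. Kit had a peak at its start in the HFSC list only, of low fold (3.02). Sox10 had 1 peak in its flank in HFSC (chr15:79148535-79148795, fold 4.42) and 1 in tumour (chr15:79145599-79145796, fold 4.04). Peaks of 1 pooled list carry no measure of spread, and differences between the lists were not tested.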

How the data were processed

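The authors deposited a table of whole-number read counts per gene for the 21 RNA libraries, with no normalisation, and its 21 columns were matched to samples, 18 by the title and 3 by the serial number in it (the Tbr pair, whose names have their parts in another order, and the BK wounded library, whose column adds the unexplained tag A5pos3). The build was mm10 and the tools named were MACS2 2.1.1.20160309, STAR, Picard and Bowtie, per the submitters' processing notes. For the counter, strand setting and annotation, the sources used here name none. Overlap with another gene model was found for Mitf alone, with the pseudogene Gm15531. A second deposited count table per CL library, with Ensembl IDs (98.9% of 47729 matched to a symbol), served as an alternative.

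Counts were tested over all genes with edgeR 4.0.16 in R 4.3.3 (TMM, filterByExpr, quasi-likelihood F test, Benjamini-Hochberg adjustment, threshold 0.05). Every adjusted p in the text comes from it unless DESeq2 1.42.0 is named. The test was tried on simulated counts. HFSC and EpdSC were fitted over CL and BK with the set as a term, the wound groups over the 8 CL libraries, and tumours with genotype or gate as a block. The SE was taken as |log2 fold change|/√F. Alternatives were other size factors, no filter, DESeq2, the Ensembl table, the groups or sets alone, a replicate block and leaving out each library. A test of gate within genotype was added after the levels were seen.

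Separate animals are not stated for the libraries of any group, so the spread behind each p-value may be technical. Replicates differed by more than counting noise in all 6 groups of 2 (chi-square over its degrees of freedom, 15 to 280). Floors of 3 counts per library and intervals cover counting error only.

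Per the file headers, the authors called ATAC peaks with MACS2 at a q-value of 0.05. Each peak was deposited with its pileup signal, its fold enrichment (a ratio to local background) and a −log10 q-value. A peak was counted for a gene when it overlapped the gene or 10 kb beside it by 1 base. Promoters came from RefSeq, GRCm38.p6, where 5 of the 6 genes were matched.

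The 6 genes and all lists were chosen with earlier results of these data known. All 6 genes are named, other genes are named from the lists where they passed the test or are at an extreme, and 5 genes per member by rank correlation. A few results under these rules are not reported here.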

Additional observations from a re-analysis of the deposited data

Results flagged for a closer look

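The wound response differed between the lineages, by the term for the difference in the CL fit, in 4 of the 6 genes, against 10.5% of all genes lower and 15.8% in either direction. The HFSC lineage response minus the EpdSC response was -5.33 on the log2 scale for Dct and -9.10 for Kit, and both fell in the HFSC lineage and rose in EpdSC. The fitted values were -11.86 for Tyrp1 and -13.43 for Tyr. They depend on the prior count, since Tyrp1 was at 0 in both EpdSC libraries, and Tyr at 0 there and in the wounded HFSC lineage. The call for Tyr was lost without any 1 of 6 of the 8 libraries.

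The gate order of Dct in the TbrKO tumour was the reverse of that in both HRas-bearing tumours, on 1 library per genotype and gate. The integrin high minus low difference was higher in TbrKO by 3.69 ± 0.80 on the log2 scale (SE, adjusted p = 0.0493, edgeR, over 6 libraries with 1 residual degree of freedom). Of 14519 genes, 3.18% were called in that direction and 5.17% in either. For Tyrp1 the value was 3.24 (adjusted p = 0.17), for Kit -1.25 (adjusted p = 0.144) and for Mitf 1.00 (adjusted p = 0.152). The test was added after the order in Dct was seen, the TbrKO side has no replicate, and no difference between genotypes is claimed from it. What sets the TbrKO tumour apart was not tested.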

How the results depend on the processing

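Leaving out 1 library at a time moved the number of genes called from 3194 to 2096 to 3676 for HFSC against EpdSC, from 6835 to 4064 to 5006 for the wounded HFSC lineage against HFSC, and from 8663 to 5735 to 9382 for wounded EpdSC against EpdSC. It moved the number from 2847 to 541 to 7460 between the wounded lineages, from 2339 to 789 to 6499 for the difference of responses, from 5685 to 1937 to 4663 between tumour genotypes, and from 4856 to 1628 to 5692 for tumours against Tbr skin. The 6 genes called then numbered 1 to 5 in the wounded HFSC lineage (5 with all libraries), 1 to 3 between the wounded lineages (3), 2 to 5 between tumour genotypes (4) and 0 to 2 for tumours against Tbr skin (0). The Mitf difference of responses ran from -2.348 to 0.1073, and Dct in tumours against Tbr skin (0.37) from -0.5423 without Tbr EpdSC to 3.472 without Tbr HFSC. With integrin high tumours only, Dct was -1.168 and Tyrp1 -0.06214 there, with 1192 genes called. HFSC against EpdSC gave 1605 genes within CL, 1587 with the Ensembl counts and 2108 within BK. Between the wounded lineages no filter gave 4303 genes, DESeq2 5336 and the 2 groups alone 1037, and DESeq2 gave 3909 for the difference of responses. Between tumour gates (446) RLE size factors gave 238, no filter 777 and DESeq2 1692 genes, with 2 of the 6 genes called under each of the latter pair. No genotype block gave 0 genes, as did leaving out both HRas or both HRas TbrKO libraries, Sox10 turning to 0.18 without the latter. Leaving out both TbrKO libraries gave 2908 genes and 5 of the 6. DESeq2 called 2 of the 6 in tumours against Tbr skin, and 42.6% of all genes. The cause of these shifts was not tested.

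Same-numbered libraries went together in the wounded gates (correlation of replicate differences 0.486) but not over the other CL pairs (-0.19 to 0.0539) or in BK (-0.235), so the numbers were not taken as pairing. With a replicate block 4 of the 6 genes were called for HFSC against EpdSC (16.7% of all genes), 3 in the wounded HFSC lineage (43.5%; Tyr and Tyrp1 lost, adjusted p = 0.0643 and 0.0557) and 5 in wounded EpdSC (57.2%). Between the wounded lineages 2 were called (14% of all genes; Dct lost, adjusted p = 0.0531) and for the difference of responses 3 (13.3%; Tyr lost, adjusted p = 0.0531). Few counts limit Tyr and Sox10 most.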

Other observations

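Levels of Kitl, the ligand of Kit, are given for all 21 libraries. Kitl stood at 27.8, 20.1, 48.3 and 25.2 CPM in the CL and BK HFSC libraries and at 9.38, 10.9, 14.5 and 24.9 CPM in EpdSC. In the wounded EpdSC of CL, where Kit was at 6.27 and 8.02 CPM, Kitl stood at 0.797 and 5.88 CPM. It stood at 6.55 and 19.8 CPM in the wounded HFSC lineage, where Kit was at 0.139 and 0.19 CPM, and at 39.2 CPM in the BK wounded library. In the Tbr pair it stood at 55.6 CPM in HFSC and 30.8 CPM in EpdSC. In the high and low cells it stood at 29.3 and 26.1 CPM in HRas and at 32.4 and 28.3 CPM in HRas TbrKO tumours. In the TbrKO tumours Kitl stood at 120 CPM in the integrin high cells and 43.5 CPM in the low cells, the reverse order of Kit (10.4 and 73.1 CPM).

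Ednrb, the endothelin receptor of melanocytes, was higher in the 6 tumour libraries than in the Tbr skin pair (5.23 against 0.238 CPM, log2 difference 4.49 ± 1.09, SE, edgeR adjusted p = 0.0185). The skin pair was 1 HFSC and 1 EpdSC library, and the tumours were of mixed genotype and gate, so neither group held replicates. Ednrb stood at 2.18 to 4.12 CPM in the high and 5.54 to 9.13 CPM in the low cells. The gates did not overlap, though the adjusted p between them was 0.0683. Markers of other cells moved in the same comparison, with all 6 fibroblast markers higher (888 to 11150 CPM in sum against 8.15 and 36.3 CPM) and all 4 endothelial markers higher (49.4 to 228 CPM against 1.16 and 1.37 CPM). Fibroblast sums followed the same order of gates (888 to 2137 CPM high, 5516 to 11150 CPM low), as did haematopoietic sums (228 to 491 and 702 to 1570 CPM). Their part in the Ednrb difference was not tested.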
